A study of Mus musculus with 9 samples.

Results

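The vacuolar ATPase (V-ATPase) is the proton pump that acidifies lysosomes, endosomes and synaptic vesicles. The subunit genes Atp6v0c, Atp6v0a1, Atp6v0b, Atp6v0d1, Atp6v0e2, Atp6v1a, Atp6v1c1, Atp6v1d, Atp6v1e1 and Atp6v1h were followed here in mouse brain cortex, 10 of 54532 genes in the expression table. They were chosen by name with their strain levels known: the FPKM of Atp6v0c is low where a pseudogene copy has many reads, and the other subunits were selected to set beside it. The strain differences of these 10 genes are therefore a description, and nothing is read from the counts of them that passed a threshold. Cortex RNA was taken from 3 male mice of each of 3 inbred strains aged 8 to 12 weeks: C57BL6/J (B6), C3H/HeJ (C3H) and WSB/EiJ (WSB). The labels name no transgene and no treatment, and each library came from a separate mouse. The reference genome of the mouse was read from B6. The WSB line was derived from wild mice and C3H is of classical laboratory origin.

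The pump has a membrane part, V0, and a cytosolic part, V1. In V0, a ring of small proteolipid subunits, mostly the c subunit encoded by Atp6v0c, turns and carries protons past the a subunit. V1 splits ATP and drives the turn through a central stalk, while peripheral stalks hold the complex in place. In neurons the pump also loads synaptic vesicles, because neurotransmitter transporters run on its proton gradient.

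Atp6v0c (ENSMUSG00000024121) lies at chr17:24163866-24169702 on the minus strand of GRCm38, and its transcript has 3 exons. Atp6v0c-ps2 (ENSMUSG00000080242) is an annotated processed pseudogene, an intronless copy of the spliced message, at chr6:37806086-37806550 on the plus strand, where no other annotated gene overlaps it. Its 465 bases matched the 465 coding bases of Atp6v0c with 1 mismatch and 0 gaps. That mismatch was T111C, with the base of Atp6v0c first and positions counted from 1 at the first base of the start codon. It is the third base of codon 37, in exon 2 of Atp6v0c. A further copy, Atp6v0c-ps1 (ENSMUSG00000108761) at chr7:4412438-4412900 on the plus strand, had 11 mismatches and 2 gap columns and shared T111C. The stretches below cover coding bases 36 to 185 of Atp6v0c, read in the direction of each gene, and are shown because the change that separates Atp6v0c from Atp6v0c-ps2 lies in them. Capitals mark position 111 in each line and, in Atp6v0c-ps1, also its other mismatches.
Atp6v0c: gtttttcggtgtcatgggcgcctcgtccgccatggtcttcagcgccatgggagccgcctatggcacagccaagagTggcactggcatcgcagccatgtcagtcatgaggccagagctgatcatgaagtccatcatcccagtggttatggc
Atp6v0c-ps2: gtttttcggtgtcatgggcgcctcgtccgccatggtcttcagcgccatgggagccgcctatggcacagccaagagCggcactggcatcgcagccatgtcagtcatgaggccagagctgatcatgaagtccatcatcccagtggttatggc
Atp6v0c-ps1: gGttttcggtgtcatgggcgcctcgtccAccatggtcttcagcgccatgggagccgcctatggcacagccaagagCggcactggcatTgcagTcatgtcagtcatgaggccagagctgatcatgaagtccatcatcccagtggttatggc
The last base of exon 1 is coding base 79 and the last base of exon 2 is coding base 263. A coding read across either joint has the same letters from the spliced Atp6v0c message or the copy, unless it covers base 111. Of the 316 windows of 150 bases in the coding sequence, 205 (64.9%) held no difference from Atp6v0c-ps2, and 0 of 316 were free of a difference from Atp6v0c-ps1. The sequencing reads were 150 bases long from both ends of a fragment, and how reads that fit more than 1 gene were counted is not given in the sources used here. These are letters of the B6 reference, and the strains' own sequences were not analysed here.

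Atp6v0c was 8.82 times lower in C3H and 9.40 times lower in WSB than in B6. Its level was 48.5, 46.7 and 49.1 FPKM (reads on a gene divided by its length and by a scaling value of the library) in the 3 B6 mice. It was 5.76, 5.54 and 5.06 FPKM in C3H and 4.51, 5.36 and 5.47 FPKM in WSB. All 6 C3H and WSB values lay far below all 3 B6 values, and the C3H and WSB values overlapped each other. The mean was 48.1 ± 1.25 FPKM in B6 (SD, n = 3), 5.45 ± 0.36 in C3H (SD, n = 3) and 5.11 ± 0.52 in WSB (SD, n = 3). The fitted log2 difference of FPKM + 0.1 was -3.12 (SE 0.08) for C3H minus B6, -3.21 (SE 0.09) for WSB minus B6 and -0.09 (SE 0.11) for WSB minus C3H. Both differences from B6 use the same 3 B6 libraries. In a bulk sample, fewer cells of a type and less RNA per cell cannot be told apart.

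The copy had the opposite pattern. Because each deposited FPKM is a whole number of reads over gene length and the scaling value of the library, the reads behind it could be recovered. Atp6v0c-ps2 had 46, 71 and 49 reads in B6, 3819, 3218 and 3436 reads in C3H, and 2687, 2912 and 2880 reads in WSB. Atp6v0c itself had 2936, 3191 and 3541 reads in B6, 363, 363 and 332 in C3H, and 254, 314 and 338 in WSB. The gene held most reads of the pair in every B6 mouse, and the copy held most of them in every C3H and WSB mouse. Atp6v0c-ps1 had at most 5 reads in any library.

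Of the reads on Atp6v0c and Atp6v0c-ps2 together, 98.5%, 97.8% and 98.6% lay on Atp6v0c in the B6 mice. The Wilson 95% interval of the lowest of these was 97.3 to 98.3%. The share was 8.68%, 10.1% and 8.81% in C3H and 8.64%, 9.73% and 10.5% in WSB, and the lowest of these 6 had an interval of 7.67 to 9.71% while the highest had 9.49 to 11.6%. The intervals of C3H and WSB mice overlapped, and they cover counting error only.

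RPM values (reads scaled for library size alone, as in FPKM but not divided by length) put the gene and its much shorter copy on the same scale. On it, Atp6v0c and both copies together came to 167, 162 and 169 RPM in B6. The sum was 225, 185 and 194 RPM in C3H and 177, 186 and 176 in WSB. The sums thus lay between 162 and 225 RPM, and every C3H and WSB sum was above every B6 sum. Their means were 166 ± 3.68 (SD, n = 3), 201 ± 20.9 (SD, n = 3) and 179.8 ± 5.67 (SD, n = 3) RPM. Against B6, Atp6v0c differed by -144 RPM in C3H and Atp6v0c-ps2 by 180.0. In WSB the differences were -145 and 159.7 RPM. With the reads of the gene and both copies put on Atp6v0c before the fit, the log2 difference turned from negative to positive: 0.28 (SE 0.09) for C3H minus B6 and 0.12 (SE 0.06) for WSB minus B6. The part of the combined reads that came from transcription of either locus was not tested.

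**Figure D1:**
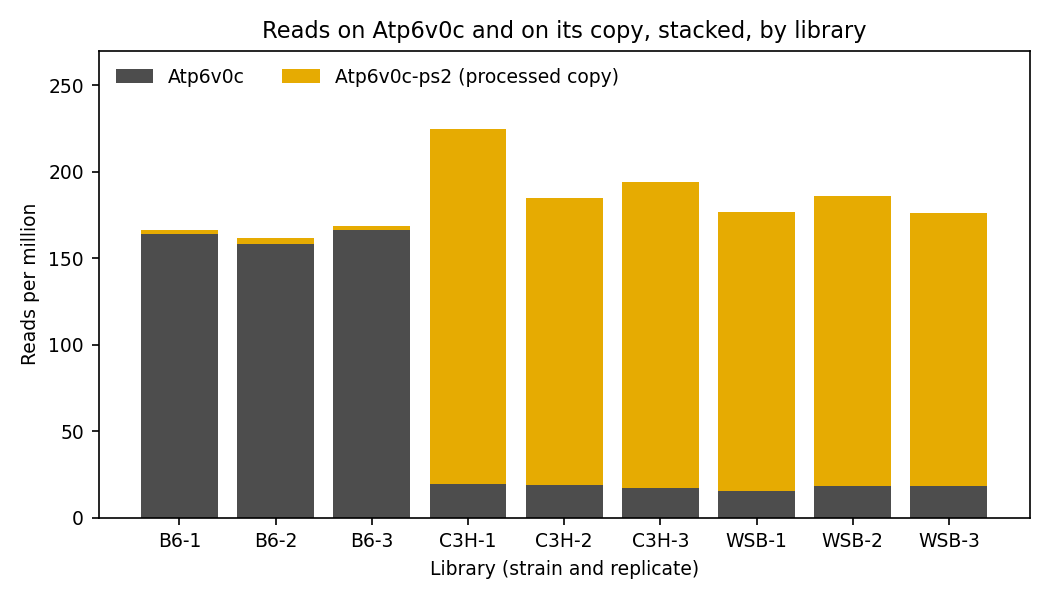
RPM (reads scaled for library size) on Atp6v0c (grey) and on its copy Atp6v0c-ps2 (yellow), stacked, in each of the 9 libraries (strain and replicate on the x axis). The grey part runs from 158 to 166 in B6 and from 15.3 to 19.5 in C3H and WSB, while the whole bar stays between 162 and 225.

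The FPKM of Atp6v0c rests on a gene length of 3384 bases, longer than its 3 exons of 256, 184 and 743 bases together. The annotated pseudogene covers 465 bases. Whether untranslated ends of the copy lie outside that annotation was not analysed here, so the number of bases that the message and the copy share is not known.

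The genes that overlap Atp6v0c or lie within 10 kb of it did not show a fall of its size. Genes farther away were not examined by position. Amdhd2, an enzyme gene of amino sugar breakdown that lies next to Atp6v0c at chr17:24155833-24163766, was 5.20 to 7.28 FPKM in B6, 5.87 to 6.46 FPKM in C3H, and 5.53 to 6.22 FPKM in WSB, which overlapped. Tbc1d24, a gene of synaptic vesicle traffic on the other side at chr17:24175431-24209387, was lower in the other strains by far less than Atp6v0c and is described with the regulators of the pump. Gm43796, annotated in the expression table across Atp6v0c and part of Tbc1d24 on the same strand, was listed at 0 in all 9 libraries. Its exons, and reads that fit both genes, were not analysed here.

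Several genes with the level pattern of Atp6v0c, or its opposite, also had a near-identical copy. The 5 most alike of 13010 genes, by Pearson's r of log2(FPKM + 0.1), were Tdg, mt-Tg, Rnps1, Pttg1 and Hmgn2, with r from 0.993 to 0.997. The 5 most opposite were Gm9855, Gm4366, Gm3375, Atp6v0c-ps2 and Gm4735, with r from -0.998 to -0.996. These r values rest on 3 B6 libraries standing apart from 6 others and are a description. Tdg and Hmgn2 among the former, and all 5 of the latter, matched another annotated gene at 98.9% identity or more. The share of all 13010 genes with such a match was not measured, so nothing is read from this count. Gm9855 is 99.2% identical over 1194 bases to Tdg, a DNA glycosylase gene that was itself the most alike, and Gm3375 is 98.9% identical over 796 bases to Psmb5, a proteasome subunit. Psmb5 had an r of 0.946 with Atp6v0c. Gm4735 is 99.8% identical over 1302 bases to Eno1b and 99.6% identical to Eno1, a gene of the glycolytic enzyme enolase. Eno1b was 0.169 to 0.588 FPKM in B6 and 62.9 to 96.6 FPKM in the other strains (r -0.991), while Eno1 was 176 to 196 FPKM in B6 and 102 to 139 FPKM in the others (r 0.930). Gm4366 is 99.6% identical over 1342 bases to Eef1g, a translation factor. Tdg was 7.31, 7.30 and 7.53 FPKM in B6 and 1.70 to 1.83 FPKM in the other strains, while Gm9855 was at most 0.0468 FPKM in B6 and 7.40 to 9.58 FPKM in the others. Eef1g did not share that step: its r with Atp6v0c was 0.442, and its level was 112 to 127 FPKM in B6 and 105 to 124 FPKM in the others.

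The other 9 subunits stayed within a narrow range. The highest library was 1.11 times the lowest for Atp6v1c1 and 1.59 times for Atp6v0e2, with the other 7 between these, against 10.9 times for Atp6v0c. Their median in a library was 84.0 to 97.0 FPKM in B6, 92.4 to 113 FPKM in C3H, and 87.7 to 90.6 FPKM in WSB. Relative to that median, Atp6v0c stood on the log2 scale at -0.91 ± 0.10 in B6 (SD, n = 3), -4.23 ± 0.15 in C3H (SD, n = 3) and -4.14 ± 0.17 in WSB (SD, n = 3). Counted with its copies, over the same gene length, it stood at -0.89 ± 0.10 (SD, n = 3), -0.78 ± 0.035 (SD, n = 3) and -0.75 ± 0.04 (SD, n = 3). In B6, Atp6v0c ranked eighth in level among the 10 genes and overlapped Atp6v1c1, its neighbour in that order. In C3H and WSB it ranked last, below Atp6v1h, with no overlap.

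**Figure D2:**
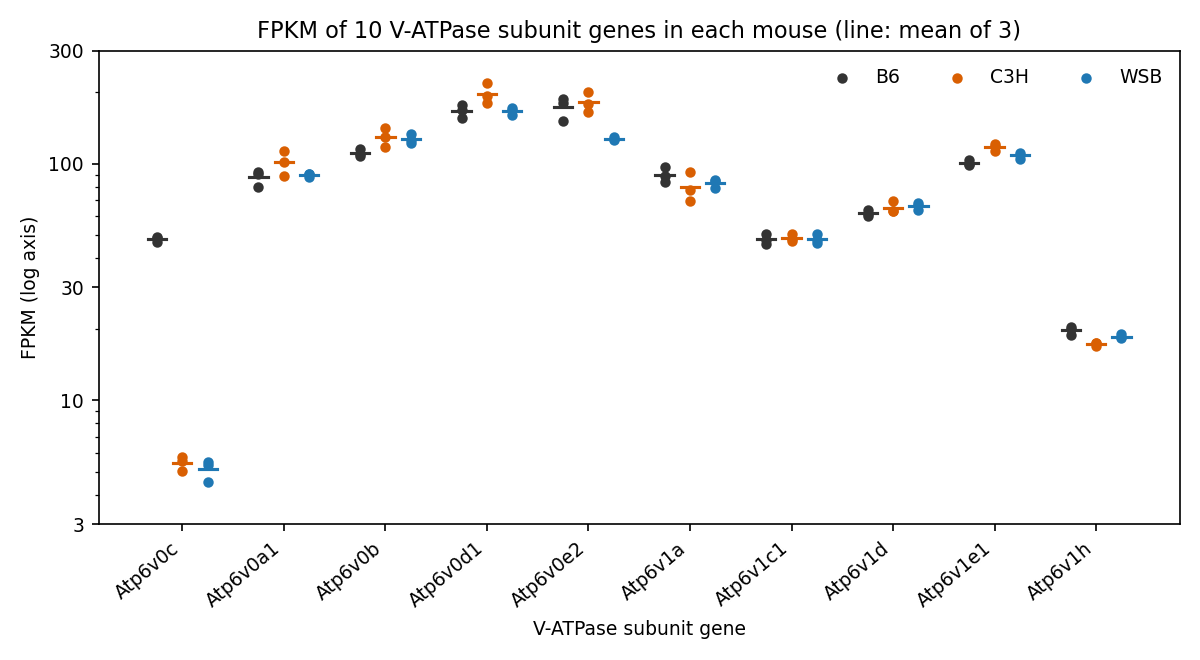
FPKM (log axis) of the 10 subunit genes in each mouse, coloured by strain, with a line at the mean of 3. Atp6v0c is at 46.7 to 49.1 in B6 and at 4.51 to 5.76 in C3H and WSB, while the next widest gene, Atp6v0e2, spans 1.59 times from its lowest to its highest library.

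Among the V0 genes, Atp6v0b at chr4:117884326-117887333 encodes another proteolipid of the same ring as Atp6v0c. It was 108, 109.9 and 116 FPKM in B6, 141, 118 and 129 FPKM in C3H, and 122, 133 and 126 FPKM in WSB. Every C3H and WSB value was above the B6 values, with log2 differences of 0.22 (SE 0.09) and 0.19 (SE 0.07). An antisense gene, Gm12841, overlaps Atp6v0b and reached 0.33 FPKM at most.

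Atp6v0d1 at chr8:105524465-105566047 encodes the d subunit, which links the ring to the central stalk. Its level was 155, 169 and 177 FPKM in B6, 219, 181 and 193 FPKM in C3H, and 172, 169 and 161 FPKM in WSB. All C3H values were above the B6 values, by a log2 difference of 0.24 (SE 0.10), while the WSB values fell within the B6 range. Atp6v0a1 at chr11:101009452-101063719 encodes the a subunit isoform that is abundant in neurons. It was 79.96, 90.8 and 92.6 FPKM in B6, 113, 89.0 and 102 FPKM in C3H, and 90.6, 90.3 and 87.7 FPKM in WSB, and the 3 strains overlapped.

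Atp6v0e2 at chr6:48537615-48541801 encodes an e subunit, a small membrane protein of V0. Its level was 152, 180.1 and 187 FPKM in B6 and 200.3, 166 and 179 FPKM in C3H. In WSB it was 129.6, 126 and 127 FPKM, below every value of the other strains. The log2 difference was -0.43 (SE 0.09) for WSB minus B6, -0.51 (SE 0.09) for WSB minus C3H and 0.07 (SE 0.11) for C3H minus B6. With each mouse left out in turn, the log2 difference ran from -0.53 to -0.38 for WSB minus B6 and from -0.57 to -0.44 for WSB minus C3H. Oligodendrocyte marker genes were also lower in WSB: the summed level of 6 markers was 427 to 617 FPKM in WSB, 784 to 982 in B6 and 734 to 989 in C3H, with all 6 detected in every strain. Its part in the level of Atp6v0e2 was not tested.

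Among the V1 genes, Atp6v1e1 at chr6:120794305-120822793 encodes the E subunit of the peripheral stalks. Its level was 99.8, 99.1 and 104 FPKM in B6, 121, 113 and 119 FPKM in C3H, and 111, 105 and 109 FPKM in WSB. The 3 strains did not overlap, and C3H was the highest, with a log2 difference from B6 of 0.22 (SE 0.07). It overlaps Slc25a18, a gene on the opposite strand, and whether counting used strand is not given in the sources used here.

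Atp6v1h at chr1:5070018-5162529 encodes the H subunit, which stops ATP splitting when V1 is detached from V0. It was the lowest of the V1 genes, at 20.1, 18.9 and 20.4 FPKM in B6, 17.5, 17.5 and 17.0 FPKM in C3H, and 18.5, 18.3 and 19.1 FPKM in WSB. The C3H values lay below all others, with a log2 difference from B6 of -0.19 (SE 0.07). Rgs20 overlaps it on the opposite strand.

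Atp6v1a at chr16:44085402-44139705 encodes the A subunit, which holds the ATP-splitting sites. It was 84.0, 88.4 and 97.0 FPKM in B6, 77.8, 92.4 and 69.8 FPKM in C3H, and 85.7, 79.3 and 84.3 FPKM in WSB, and C3H replicate 2 stood above the other C3H mice. Atp6v1c1 at chr15:38661933-38692446 encodes the C subunit, which takes part in the reversible joining of V1 to V0, and it varied least, from 45.8 to 50.7 FPKM over all 9 mice. Atp6v1d at chr12:78840725-78861638 encodes the D subunit of the central stalk and was 59.96 to 63.95 FPKM in B6, 63.0 to 69.2 FPKM in C3H, and 63.4 to 68.2 FPKM in WSB. For these 3 genes the strains overlapped in every pair, and the log2 differences from B6 ran from -0.17 (SE 0.11) to 0.10 (SE 0.06).

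**Figure D3:**
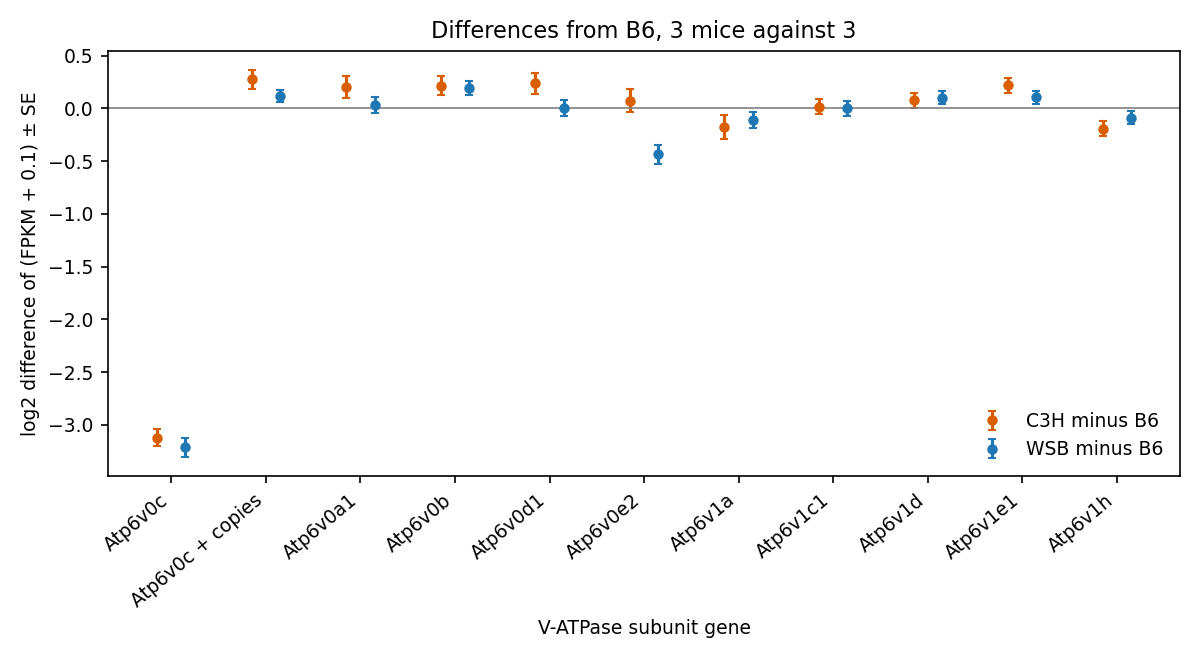
Fitted log2 difference of FPKM + 0.1 from B6 (y axis, points with SE bars, 3 mice against 3) for C3H (orange) and WSB (blue), for the 10 genes and for Atp6v0c with the reads of its copies added. Atp6v0c lies at -3.12 and -3.21 and moves to 0.28 and 0.12 with its copies, while the others lie between -0.43 and 0.24.

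At an adjusted p under 0.05 over all genes tested (limma with Benjamini-Hochberg adjustment), 2 of the 10 subunits, Atp6v0c and Atp6v0e2, passed in WSB against B6, where 5.9% of 20746 genes passed. Atp6v0e2 no longer passed there when any mouse but B6 replicate 1 was left out, nor against C3H when any mouse but C3H replicate 2 was left out. In C3H against B6, 1 passed, Atp6v0c, where 4.64% of 20602 genes did, and in WSB against C3H 1 passed, Atp6v0e2, where 5.74% of 20607 genes did. All 10 had a mean of at least 0.1 FPKM and entered every fit. The values of the 10 genes did not overlap between strains in 4 genes for WSB and B6, 5 for C3H and B6 and 4 for WSB and C3H, where 26.0%, 28.9% and 28.6% of all genes tested did not. Nothing is read from these counts, since the genes were chosen with these contrasts in view. The median log2 difference of the 9 subunits other than Atp6v0c was 0.08 for C3H minus B6 and 0.00 for WSB minus B6, beside medians of -0.004 and 0.002 over all genes tested. Leaving out a mouse moved the C3H minus B6 median to between 0.03 (without C3H replicate 1) and 0.14 (without C3H replicate 2), with 0.13 without B6 replicate 3, and the WSB minus B6 median to between -0.03 and 0.04.

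The C3H differences of the 9 subunits followed the GC content of the genes. The GC-poor Atp6v1h (37.6% GC) was lowest in C3H relative to B6, and Atp6v1a (44.6% GC) was also below 0. The 4 genes from Atp6v1e1 (50.3% GC) to Atp6v0b (55.9% GC) were all above 0. So were the GC-poorer Atp6v1d (42.5% GC), Atp6v1c1 (44.4% GC) and Atp6v0a1 (47.0% GC). Across the 9 genes, which share the same libraries, Pearson's r of GC content with the C3H minus B6 difference was 0.76, against 0.01 for WSB minus B6. Over 12995 genes, the deviation of a library from the others followed GC content with a Spearman rho of 0.51 and 0.53 in C3H replicates 1 and 3, -0.18 in C3H replicate 2, and -0.47 to 0.06 in the B6 and WSB libraries. Once the GC trend of every library had been taken out, r over the 9 genes was -0.46. Atp6v1h then stood at 0.18 (SE 0.14) in C3H minus B6, a turn of direction, and Atp6v0e2 at -0.05 (SE 0.08), also a turn. Atp6v0b came to 0.05 (SE 0.06) and Atp6v0d1 to 0.11 (SE 0.07). The median over the 9 genes went from 0.08 to 0.15, and 7 of 9 were above 0 both before and after. The highest after removal was Atp6v1d, at 0.27 (SE 0.11), followed by Atp6v0a1 at 0.24 (SE 0.12), with Atp6v1c1 at 0.15 (SE 0.07) and Atp6v1a at -0.05 (SE 0.09). Atp6v1e1 changed little, at 0.16 (SE 0.05), and the difference of Atp6v0e2 in WSB minus B6 stayed at -0.48 (SE 0.08). Atp6v0c stood at -3.22 (SE 0.07) and -3.25 (SE 0.08).

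**Figure D4:**
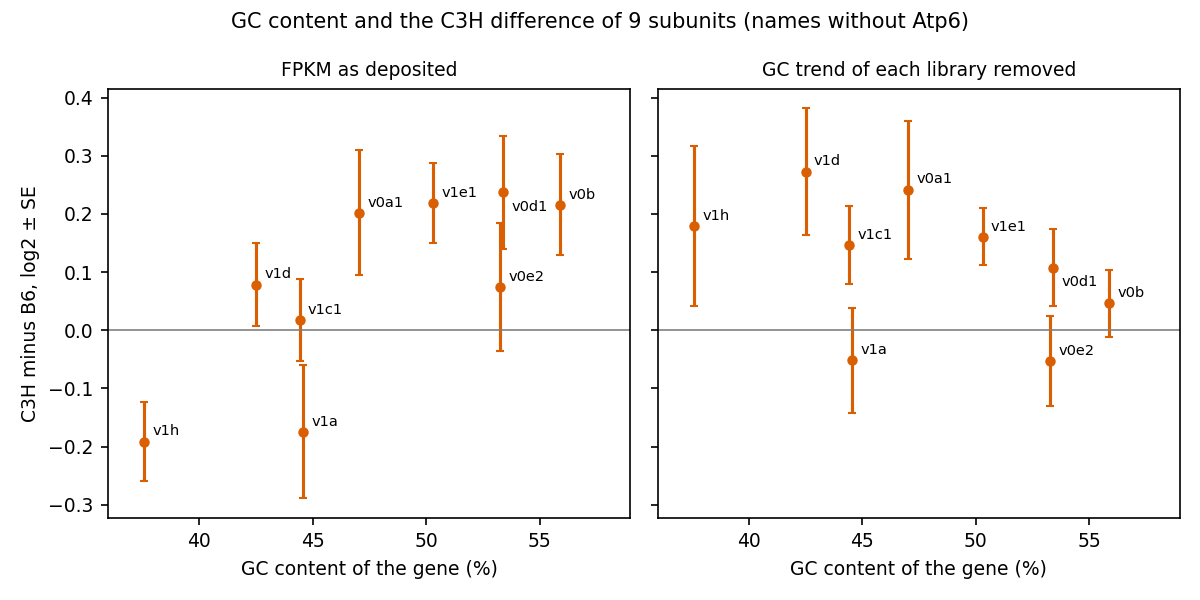
GC content of the 9 subunits other than Atp6v0c (x axis, percent) against their C3H minus B6 log2 difference (y axis, points with SE bars), as deposited (left) and after the GC trend of every library was taken out (right). On the left Atp6v1h, at 37.6% GC, lies at -0.19 and Atp6v0b, at 55.9% GC, at 0.22, and on the right they lie at 0.18 and 0.05.

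The levels of the 9 subunits were also set against their own median across mice. In a library that median is the level of the middle gene, which was Atp6v0a1 in most libraries and Atp6v1a in the rest. Likeness to it is therefore in large part likeness to Atp6v0a1, whose own r was largely fixed in advance. Atp6v0d1 and Atp6v0a1 had a Pearson's r of 0.979 and 0.975 with the median of the 9 over the 9 libraries, a median they are part of. Atp6v1a and Atp6v1h had r of -0.376 and -0.556. The 5 other genes closest to that median were Actr1a, Hk1, Ppp6r1, Susd4 and Camk1, with r from 0.964 to 0.986. C3H replicate 1 was the highest of the 9 libraries for Actr1a, Hk1, Atp6v0d1 and Atp6v0a1, and GC trends also differed between the libraries.

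Copies of the other subunits had few reads. Among annotated genes matching a subunit with at least 80% identity over at least 200 bases, Gm38604, which matches Atp6v1a at 88.2%, had 7 to 24 reads in a library, beside at least 8188 reads on Atp6v1a. Gm13453, a processed pseudogene 99.4% identical to Atp6v1g1 over 357 bases, had more reads in WSB. It had 2, 3 and 5 reads in B6, 6, 2 and 1 in C3H, and 69, 61 and 14 in WSB, beside 1550 to 2247 reads on Atp6v1g1, a gene for the G subunit of the peripheral stalk. It was singled out after its values were seen.

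A short motif of lysosomal genes was looked for at the start of the subunit genes. In RefSeq promoters of GRCm38.p6, taken from 250 bases before to 50 bases after a gene's start, the letters CACGTG, the E-box core bound by TFEB and related factors that regulate lysosomal genes, were found in 3 of the 8 subunit genes with an entry. Of all 27025 genes with an entry, 8.09% held it in at least 1 promoter, and of the 11 other subunit genes with an entry 1 did, Atp6v0e. CACGTG reads the same on both strands. The longer TCACGTGA, which contains it, was found in 2 of the 8, in Atp6v0e among the 11, and in 1.12% of all genes with an entry. The 3 windows of 30 bases are shown in the direction of the gene, with CACGTG in capitals, to place the motif. They lie at chr4:117887348-117887377, chr8:105566050-105566079 and chr16:44139373-44139402, all on the minus strand.
Atp6v0b: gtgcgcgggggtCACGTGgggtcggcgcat
Atp6v0d1: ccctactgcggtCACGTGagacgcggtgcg
Atp6v1a: ttttttttaaatCACGTGataggcttaacg
Of the 3, Atp6v0b was higher in C3H and WSB than in B6, Atp6v0d1 was higher in C3H, and Atp6v1a overlapped between strains. A match is not a binding site, and binding was not measured here.

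The remaining subunit genes of the pump and its accessory proteins were taken as a whole, 15 genes, and tested. Of these, 10 reached a mean of 0.1 FPKM, while Atp6v0a4, Atp6v0d2, Atp6v1b1, Atp6v1e2 and Atp6v1g3, which are isoforms of kidney, bone or testis, did not. In WSB against B6, 1 of 10 passed, Atp6v1g2, beside 5.9% of all genes tested, and 3 of 10 had an unadjusted p under 0.05, beside 20.4% of all genes. In C3H against B6 and in WSB against C3H, 0 of 10 passed by limma, with 2 and 1 at an unadjusted p under 0.05 beside 24.1% and 23.8% of all genes, and 0 passed with voom weights. Without C3H replicate 2, 2 passed in each: Atp6ap2 and Atp6v1f against B6, and Atp6ap2 and Atp6v1c2 against WSB. Calls also rose over all genes in these fits. They went from 956 of 20602 to 2301 of 20562 against B6, and from 1182 of 20607 to 2002 of 20614 against WSB. With all mice, the median log2 difference of the 10 genes was 0.02 for WSB minus B6 and 0.07 for C3H minus B6.

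Atp6v1g2, the G subunit isoform found mainly in neurons, was 173, 194 and 203 FPKM in B6, 186, 159 and 153 FPKM in C3H, and 144, 143 and 155 FPKM in WSB. It fell in WSB by 0.37 on the log2 scale (limma log2 difference -0.37, SE 0.08, adjusted p = 0.047), with all WSB mice below all B6 mice. The difference between WSB and C3H was -0.17 (limma adjusted p = 0.320). The call in WSB rested on all mice but B6 replicate 1: without any other mouse the limma adjusted p was 0.080 to 0.167. Nfkbil1 overlaps Atp6v1g2 on the opposite strand. Atp6v1c2, a C subunit isoform, was 0.89 to 1.38 FPKM in B6 and 1.97 to 2.07 FPKM in WSB, a log2 difference of 0.75 that did not pass (limma adjusted p = 0.061). Atp6v1b2, the B subunit isoform of brain, was 133 to 153 FPKM in B6, 147 to 155 FPKM in C3H, and 133 to 141 FPKM in WSB.

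Genes that assemble or regulate the pump were taken as a list of 12. Of the 11 tested in WSB against B6, 2 were lower and passed, Ccdc115 and Tbc1d24, where 5.9% of all genes passed, and 3 had an unadjusted p under 0.05, where 20.4% of all genes did. In C3H against B6, 0 of 12 passed by limma, 4 had an unadjusted p under 0.05 (24.1% of all genes), and 1 passed with voom weights, Dmxl2. In WSB against C3H, 1 of 11 passed, Ccdc115, beside 5.74% of all genes. The counts at an unadjusted p were near the shares over all genes.

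Ccdc115, an assembly factor of V0 that acts in the endoplasmic reticulum, lies at chr1:34436670-34439672 on the minus strand. It was 7.25, 7.71 and 9.06 FPKM in B6, 7.58, 8.89 and 8.92 FPKM in C3H, and 5.23, 5.68 and 5.83 FPKM in WSB. All WSB values were below all others, with log2 differences of -0.51 from B6 (SE 0.11, limma adjusted p = 0.036) and -0.59 from C3H (SE 0.10, limma adjusted p = 0.017). Against B6 the call was kept without B6 replicate 1 alone, and without any other mouse the limma adjusted p was 0.080 to 0.108. Against C3H it was lost without C3H replicate 3, WSB replicate 1 or WSB replicate 2, at 0.055 to 0.080. Tmem199, its partner in the assembly of V0, had log2 differences from B6 of 0.24 in C3H and 0.14 in WSB that did not pass (limma adjusted p = 0.227 and 0.455).

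Tbc1d24, which binds the pump and takes part in synaptic vesicle traffic, was 7.83, 8.10 and 9.17 FPKM in B6, 6.72, 6.82 and 6.26 FPKM in C3H, and 5.72, 5.59 and 6.21 FPKM in WSB. Both other strains lay below B6 without overlap. The log2 difference was -0.51 (SE 0.09, limma adjusted p = 0.021) for WSB minus B6 and -0.34 (SE 0.09, limma adjusted p = 0.093) for C3H minus B6. The call in WSB was lost without B6 replicate 2, B6 replicate 3, WSB replicate 1 or WSB replicate 2, at a limma adjusted p of 0.072 to 0.076.

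Some genes of this list stood apart in 1 C3H library. Dmxl2, the large subunit of the complex that joins V1 to V0 at synapses, was 13.3, 12.2 and 12.7 FPKM in B6 and 9.03, 11.2 and 7.54 FPKM in C3H. Oxr1, of a protein family that binds V1, was 34.7 to 37.8 FPKM in B6 and 25.1, 37.5 and 23.2 FPKM in C3H. In both, C3H replicate 2 stood nearest to B6. Without it, Dmxl2, Ncoa7, Oxr1 and Vma21 passed in C3H against B6, where 2301 of 20562 genes passed. In WSB against C3H, Ccdc115, Dmxl1, Ncoa7 and Oxr1 passed without it, where 2002 of 20614 genes passed. The GC content of these genes ran from 37.3% (Vma21) to 44.8% (Ccdc115). C3H replicate 2 is also the C3H library without the GC trend of the other C3H libraries.

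**Figure D5:**
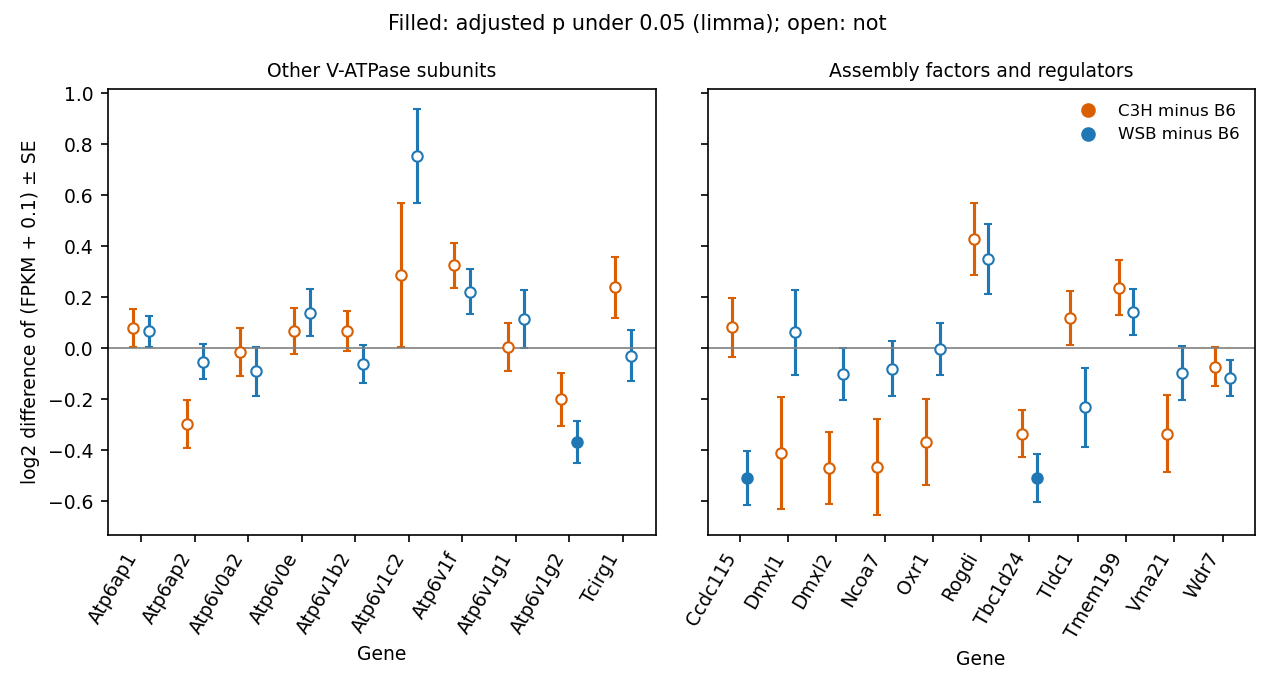
Fitted log2 difference of FPKM + 0.1 from B6 (y axis, points with SE bars, 3 mice against 3) for the 10 tested other subunits (left) and 11 assembly factors and regulators (right), C3H in orange and WSB in blue. Filled points passed an adjusted p of 0.05 by limma: Atp6v1g2 at -0.37, Ccdc115 at -0.51 and Tbc1d24 at -0.51, all in WSB.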

How the data were processed

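Cortex RNA of 9 male mice, 3 per strain, was sequenced with paired-end reads. After adapter trimming (Cutadapt) and counting per gene (HTSeq), the authors used DESeq2 for their own tests and deposited 1 FPKM value per gene and mouse. STAR is also named in the submitters' processing notes. Versions, strand setting and genome build are not given in the sources used here. FPKM multiplied by gene length was a whole multiple of 1 step per library for 100% of values (tolerance 0.01 read), which gave back the reads: 16317439 to 21562429 per library on genes. Libraries of 1 strain differed by more than sampling noise. No value column was left unused.

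Strains were compared in pairs with limma 3.58.1 in R 4.3.3 (lmFit, then eBayes with its trend option; two-sided). Values were log2(FPKM + 0.1), which understates changes of low genes. Genes whose mean reached 0.1 FPKM in the 6 mice were tested, with Benjamini-Hochberg adjustment over all of them. p-values measure the spread between these mice. The fit was tested on simulated counts, where it found nearly all of the largest changes among genes at 1 FPKM or more, missed many smaller changes and those of low genes, and made a larger share of false calls than its threshold sets. The pass mark of that test was set after its first outcome had been seen. Copies were searched with blastn 2.17.0 among GENCODE M21 transcripts (GRCm38), and promoters came from RefSeq. Coordinates are those in the deposited table.

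The subunits and gene lists were chosen with earlier results of these data known. Named genes were all 10 subunits, copies of Atp6v0c, genes overlapping it or within 10 kb, list genes that passed, the 5 genes most and least like Atp6v0c, the 5 most like the other subunits' median, and the largest passing change of each further list. Alternatives were pseudocounts of 1 and 0.01, no filter or 1 FPKM, median-ratio and total-read rescaling, 3 strains in 1 fit, no eBayes trend, voom weights, a replicate block, GC trend removal and leaving out each mouse. Summing the copies was added after seeing the data.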

Additional observations from a re-analysis of the deposited data

Results flagged for a closer look

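Among the genes of the lists, these differed between C3H and WSB, where 5.74% of all genes tested passed. Atp6v0e2 was lower in WSB than in C3H by a log2 difference of -0.51, given as a description because the gene was chosen with its values known. Ccdc115 was also lower in WSB, with a log2 difference from C3H of -0.59 (limma adjusted p = 0.017). Scarb2, a lysosomal membrane protein that carries glucocerebrosidase, was higher in WSB than in C3H by 0.50 on the log2 scale (limma adjusted p = 0.010), with all WSB mice above and all C3H mice below B6. Tpp1, a lysosomal peptidase, was higher in WSB by 0.49 (limma adjusted p = 0.014). Syt1, the calcium sensor of synaptic vesicle release, was higher in WSB than in C3H by 0.86 (limma adjusted p = 0.0018).

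Of the cell type markers, those that passed were lower in WSB than in C3H: Gfap of astrocytes with a log2 difference of -0.70, Mog of oligodendrocytes with -0.92, C1qa of microglia with -0.54 and Slco1a4 of endothelium with -0.61 (limma adjusted p = 0.014, 0.041, 0.020 and 0.040). Ly6c1, also of endothelium, was listed at 0 in all WSB libraries and had a mean of 14.2 FPKM in C3H. Of these genes, Syt1 and Ly6c1 passed whichever mouse was left out. For each of the others, Atp6v0e2 and Ccdc115 included, at least 1 left-out mouse ended the call, at a limma adjusted p of 0.051 to 0.149.

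Lamp1, a lysosomal membrane protein, lay above B6 in all C3H mice (124.6 to 146 FPKM) and below B6 in all WSB mice (116 to 118 FPKM), but the WSB minus C3H log2 difference of -0.19 did not pass (limma adjusted p = 0.194). The microglia marker Tmem119 also lay above B6 in all C3H mice and below B6 in all WSB mice, with a WSB minus C3H log2 difference of -0.50 that did not pass (limma adjusted p = 0.051). The groups of 3 are too small for a check of single outlying mice.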

How the results depend on the processing

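The Atp6v0c difference from B6 depended on whether its copies were counted with it: with copies summed it reversed to 0.28 in C3H and 0.12 in WSB. With a pseudocount of 1 it was -2.93 and -3.01, and with the GC trend removed -3.22 in C3H. Leaving out a mouse gave -3.16 to -3.07 in C3H and -3.26 to -3.13 in WSB. Its WSB minus C3H difference stayed within its spread in all 18 alternatives.

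Counts of calls were small and moved. Subunits of the list of 10 that passed went from 2 to 1 in WSB against B6 with copies summed, without an eBayes trend, with no filter or with the replicate block, from 1 to 0 in C3H against B6 with copies summed, and from 1 to 0 in WSB against C3H without an eBayes trend or with the replicate block. Leaving out a mouse gave 1 to 2 in WSB against B6 and 0 to 1 in WSB against C3H. Other subunits that passed in WSB against B6 went from 1 to 0 without an eBayes trend, with no filter, with a pseudocount of 0.01 or 1 and with the replicate block. Leaving out a mouse gave 0 to 1 there and 0 to 2 in both comparisons with C3H. Assembly and regulator genes that passed in WSB against B6 went from 2 to 1 once GC trends were removed, and to 0 without an eBayes trend, and leaving out a mouse gave 0 to 2. In C3H against B6 they went from 0 to 1 with voom weights, and in WSB against C3H from 1 to 0 without an eBayes trend or with the replicate block. Leaving out a mouse gave 0 to 4 in both, with 4 reached without C3H replicate 2. Over all genes, leaving out that library moved calls in C3H against B6 from 956 to 2301 and in WSB against C3H from 1182 to 2002. The cause was not tested.

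Replicate numbers did not pair the mice: same-numbered mice had correlations of deviations between -0.157 and 0.037. When the replicate block was in the fit, calls over all genes went from 1224 to 754, 956 to 480 and 1182 to 531 in WSB against B6, C3H against B6 and WSB against C3H. Fits without 1 mouse have 2 against 3. A call of a gene at the depth of Atp6v0c-ps1, at most 5 reads, is not detectable here.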

Other observations

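Lysosomal genes, whose proteins work in the acid that the pump makes, were listed as 23 genes of lysosome membrane or acid hydrolases, all tested. In WSB against B6, 2 rose, Ppt1 and Scarb2, and 0 fell, and in C3H against B6 1 rose, Ppt1, beside 5.9% and 4.64% of all genes that passed in either direction. Ppt1, the lysosomal thioesterase that removes palmitate from proteins, was 27.1 to 28.4 FPKM in B6, 39.97 to 41.8 FPKM in C3H, and 38.9 to 40.3 FPKM in WSB, a log2 difference of 0.56 and 0.52 (limma adjusted p = 0.0031 and 0.0027), and it passed whichever mouse was left out. Scarb2 in WSB against B6 no longer passed without B6 replicate 2, WSB replicate 1 or WSB replicate 3, at a limma adjusted p of 0.0501 to 0.065. In WSB against C3H, 2 were higher in WSB, Scarb2 and Tpp1. The median log2 difference of the 23 genes was 0.06 for C3H minus B6 and -0.01 for WSB minus B6, beside -0.004 and 0.002 over all genes tested.

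Of 11 genes for loading and releasing synaptic vesicles, 1 fell in C3H against B6, Syt1, where 4.64% of all genes passed in either direction. It fell by 1.11 on the log2 scale (log2 difference -1.11, limma adjusted p = 0.0003). In WSB against B6, 0 passed by limma, beside 5.9% of all genes, and 2 had an unadjusted p under 0.05, beside 20.4% of all genes. Syt1 was 170.1 to 187 FPKM in B6, 76.8 to 86.5 FPKM in C3H, and 138 to 162 FPKM in WSB. Of the transcription factors listed as regulators of the pump, 4 were tested and 0 passed by limma in any comparison. At an unadjusted p under 0.05 there was 1 in C3H against B6, beside 24.1% of all genes. There were 0 in WSB against B6 and in WSB against C3H, beside 20.4% and 23.8%.

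Neuron markers summed to 922 to 986 FPKM in B6, 982 to 1054 FPKM in C3H, and 1005 to 1022 FPKM in WSB. Of the 6 oligodendrocyte markers, Mobp fell in WSB against B6 (log2 difference -0.77, limma adjusted p = 0.040) and Mog in WSB against C3H (-0.92, limma adjusted p = 0.041). The 6 choroid plexus markers summed to 64.4 to 763 FPKM in B6, 92.1 to 656 FPKM in C3H, and 468 to 604 FPKM in WSB. Microglia markers summed to 118 to 123 FPKM in B6, 124 to 150.2 FPKM in C3H, and 102 to 104 FPKM in WSB. Among those that passed, Aif1 was higher in C3H than in B6 and Csf1r was lower in WSB than in B6. The 6 markers did not all move together. The log2 difference was above 0 for 4 of 6 in C3H minus B6 and for 2 of 6 in WSB minus B6. C1qa had the highest level of the 6, at 59.9 to 65.7 FPKM in B6, 65.3 to 80.02 FPKM in C3H, and 48.2 to 53.97 FPKM in WSB. Astrocyte markers summed to 264 to 300.2, 295 to 325 and 272 to 281 FPKM in the same order, and Gfap was lower in WSB than in C3H. Endothelial markers summed to 38.3 to 41.8, 34.5 to 48.5 and 23.3 to 29.99 FPKM. Slco1a4 was lower in WSB, and Ly6c1 was listed at 0 in all WSB libraries. Ly6c1 is part of that sum, at 10.5 to 10.95 FPKM in B6, so the lower WSB sum is not a fall of every marker. Cldn5, the highest of the 6, overlapped, at 18.3 to 21.9 FPKM in B6 and 16.3 to 22.3 FPKM in WSB. Of the 6 markers, 3 had no overlap between WSB and B6. Of these marker calls, that of Ly6c1 held whichever mouse was left out, and each of the others was lost without at least 1 mouse, at a limma adjusted p of 0.053 to 0.149. Their part in the levels of the pump genes was not tested.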
